A study of Mus musculus with 2 samples.

Results

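The retinol and thyroxine carriers and retinoid enzymes described here are Rbp4, Ttr, Rbp2, Dhrs3, Dio1, Aldh1a1 and Aldh1a2, chosen by name, 7 of 43346 Ensembl genes in the deposited tables. They were measured by total RNA-seq, as the labels call it, in whole livers of newborn B6NCrl mice (C57BL/6N substrain) on postnatal day 0. The only group has 2 livers, one from pup 2 and one from pup 1 of the same dam, each made into 1 library from 10 ng of RNA. The labels name no treatment or mutation, and sex was not collected. Expected counts, which are reads per gene estimated by a model, summed to 41443673 in pup 2 and 42124582 in pup 1. With a single group there is no contrast between conditions, so levels, ratios between genes and the spread between the littermates are given.

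Vitamin A travels in blood as retinol bound to Rbp4, which the liver secretes and which circulates in a complex with transthyretin (Ttr), itself a carrier of thyroxine. Inside cells retinol is held by binding proteins such as Rbp2, oxidised to retinaldehyde and then, by Aldh1a1 and Aldh1a2, to retinoic acid, the ligand of nuclear receptors. Dhrs3 returns retinaldehyde to retinol. Dio1 is a selenium-containing deiodinase that removes iodine from thyroxine and is well known in adult liver and kidney. All values are from whole liver, where fewer cells of a type and less RNA per cell cannot be told apart.

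Of the members with several annotated transcripts, Rbp4 and Rbp2 each drew nearly all reads from one of several start sites, so the bases before those starts are shown, from RefSeq on GRCm38.p6, 5′ to 3′. The start with almost all of the Rbp4 RNA, among the 2 Rbp4 transcripts counted, is given first. The upstream start of the minor transcript follows it, then the used start of Rbp2. The windows are chr19:38124829-38125061 and chr19:38125322-38125571 on the minus strand and chr9:98490287-98490536 on the plus strand. Each window held 250 bases before the start, and 17 bases annotated as UTR were left out of the first. The RefSeq starts lie at 38124811 and 38125321 for Rbp4, close to the GENCODE starts, and at 98490537 for Rbp2. Capitals mark matches, on either strand, to TATAAA (the core promoter box), AGGTCA (nuclear receptor half-site), CAAAGNTCA (a site of HNF4 type), GTTAAT (HNF1 half-site) or GGGCGG (GC box), motifs chosen with the sequences in view.
Rbp4 main start: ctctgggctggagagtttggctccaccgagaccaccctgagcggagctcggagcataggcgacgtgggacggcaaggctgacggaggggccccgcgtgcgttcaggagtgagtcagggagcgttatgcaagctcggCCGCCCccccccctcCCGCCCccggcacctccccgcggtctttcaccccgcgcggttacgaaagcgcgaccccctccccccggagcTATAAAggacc
Rbp4 minor start: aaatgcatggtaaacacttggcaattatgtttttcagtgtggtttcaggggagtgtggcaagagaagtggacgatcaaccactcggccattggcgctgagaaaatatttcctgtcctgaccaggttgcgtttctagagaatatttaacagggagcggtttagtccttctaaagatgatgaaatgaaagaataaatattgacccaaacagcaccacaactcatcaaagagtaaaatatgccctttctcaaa
Rbp2 main start: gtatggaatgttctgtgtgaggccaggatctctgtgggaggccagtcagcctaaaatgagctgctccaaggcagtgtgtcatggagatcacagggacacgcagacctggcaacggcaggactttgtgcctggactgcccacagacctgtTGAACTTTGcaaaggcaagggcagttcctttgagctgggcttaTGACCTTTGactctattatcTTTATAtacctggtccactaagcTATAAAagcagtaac
The main Rbp4 window held TATAAA from base -28 to base -23 before the RefSeq start and GGGCGG at 2 places on the opposite strand. It had 70.8% G and C, against 40.8% in the window of the minor start, which held none of the 5 motifs. The Rbp2 window held TATAAA from base -15 to -10 and, on the opposite strand, from -38 to -33, and CAAAGNTCA on the opposite strand from -101 to -93 and from -58 to -50. The second CAAAGNTCA overlapped the only AGGTCA. Of 32851 windows of the same length, 12.4% held TATAAA, 14.0% AGGTCA, 1.32% CAAAGNTCA, 6.43% GTTAAT and 32.7% GGGCGG. These matches are a description of the letters and do not show binding.

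The carriers of blood retinol and thyroxine were by far the most abundant of the 7. Rbp4 stood at 6998 TPM in pup 2 and 6616 in pup 1, where TPM is a share of reads per effective length (mean 6807 ± 270.1, SD, n = 2 as for all means here). It ranked 18 among all Ensembl genes and 14 among protein-coding ones. Ttr stood at 2515 TPM in pup 2 and 2976 in pup 1 (mean 2746 ± 326), rank 45. Neither carrier was below 2515 TPM in either liver, with pup 2 the higher for Rbp4 and the lower for Ttr. Rbp4 rested on 208589 expected counts in pup 2 and 195876 in pup 1, and Ttr on 100891 in pup 2 and 118595 in pup 1. Together they held 98.7% of the TPM of the 7 genes in pup 2 and 98.6% in pup 1. The 7 genes made up 0.969% ± 0.00627 of all TPM.

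Rbp2, a cellular retinol-binding protein best known from the absorptive cells of the small intestine, stood at 74.4 TPM in pup 2 and 83.0 in pup 1 (mean 78.7 ± 6.02, rank 1300), from 1525 expected counts in pup 2 and 1691 in pup 1. Dhrs3, the retinaldehyde reductase, stood at 45.5 TPM in pup 2 and 43.2 in pup 1 (mean 44.3 ± 1.64), from 2560 counts in pup 2 and 2442 in pup 1. Both genes were close between the littermates, with an SD of 7.66% of the mean for Rbp2 and 3.7% for Dhrs3. Dio1, which deiodinates thyroxine, stood lower, at 5.23 TPM in pup 2 and 9.08 in pup 1 (mean 7.16 ± 2.72), from 293 counts in pup 2 and 507 in pup 1. Its SD was 38.0% of its mean, the widest of the 7.

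The enzymes that make retinoic acid were at the bottom of the range. Aldh1a1 stood at 2.39 TPM in pup 2 and 1.9 in pup 1 (mean 2.15 ± 0.346), from 167 counts in pup 2 and 132 in pup 1. Aldh1a2, the main retinaldehyde dehydrogenase of the early embryo, stood at 0.44 TPM in pup 2 and 0.56 in pup 1 (mean 0.5 ± 0.0849), from 34 counts in pup 2 and 43 in pup 1. The authors' credible intervals, which cover counting and read assignment, overlapped between the livers for both enzymes. Of the 7 genes 6, all but Aldh1a2, reached 1 TPM in both livers, as did 28.5% of all Ensembl genes. Rbp4 and Ttr reached 100 TPM in both, as did 2.41% of Ensembl genes. The mean TPM of Rbp4 was 13613.5 times that of Aldh1a2.

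**Figure D1:**
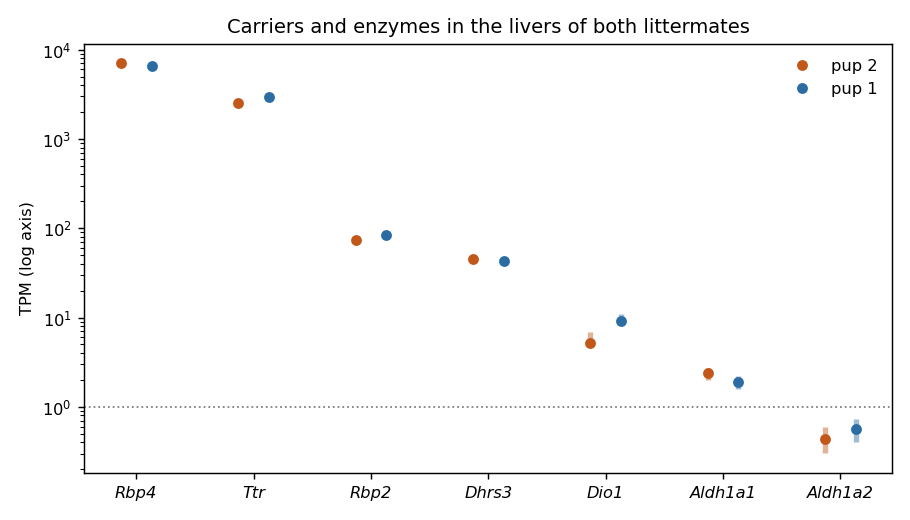
TPM on a log axis of each of the 7 genes in the liver of pup 2 (orange) and of pup 1 (blue), in the order of mean TPM, with the authors' credible intervals as bars and a dotted line at 1 TPM. The carriers Rbp4 and Ttr lie at 2515 TPM or above, Rbp2 and Dhrs3 between 43.2 and 83.0, and Aldh1a2 is below the line in both livers.

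The order of the 7 levels was the same in both livers. A ratio between genes was called larger than the spread when its log2 value had one sign in both livers and a mean of over 3 SD from 0. An exact sign permutation over 2 livers cannot give a two-sided p below 0.5, so none is printed. Of the 6 steps between neighbours in the order, 5 exceeded the spread. The log2 ratio was 1.31 ± 0.23 for Rbp4 over Ttr, 5.12 ± 0.061 for Ttr over Rbp2 and 0.83 ± 0.16 for Rbp2 over Dhrs3. Rbp2 lay below Dhrs3 by -0.64 ± 0.15 when counts were not corrected for length, a setting added after the data were seen. The log2 ratio of TPM was 2.69 ± 0.62 for Dhrs3 over Dio1 and 2.10 ± 0.48 for Aldh1a1 over Aldh1a2. Dio1 and Aldh1a1 did not differ beyond their spread, at 1.13 in pup 2 and 2.26 in pup 1 (mean 1.69 ± 0.80).

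Protein-coding genes next to each member in mean TPM give a sense of these levels. The mitochondrial gene mt-Atp8 (7746 ± 749.9 TPM) stood directly above Rbp4 and the fatty acid binding protein gene Fabp1 (6231 ± 628 TPM) directly below it. Ttr lay between the apolipoprotein gene Apoc2 (2835 ± 109.7 TPM) and antithrombin, Serpinc1 (2735 ± 55.2 TPM). Rbp2 lay between Cirbp (78.8 ± 3.45 TPM) and Smim1 (78.7 ± 4.93 TPM), and Dio1 between Prpf39 (7.17 ± 0.997 TPM) and Slc3a1 (7.16 ± 0.573 TPM). Dhrs3 shared its mean of 44.3 TPM with Trim59 and Mrpl4, Aldh1a1 its mean with Fam171a1 and Per2, and Aldh1a2 its mean with Wfdc18 and Lypd1.

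Genes of the same family or pathway were compared in 11 further ratios, 10 of them larger than the spread. Rbp7, another cellular retinol-binding protein, had 3 counts in pup 2 and 2 in pup 1. Rbp2 was 392 times Rbp7 in pup 2 (exact 95% counting interval 134 to 1902) and 754 times in pup 1 (208 to 6232). Rbp7 TPM is deposited in rounded form, at 0.19 in pup 2 and 0.11 in pup 1. These folds are therefore rough, and their gap between the pups cannot be read. The log2 ratio was 9.09 ± 0.67 with TPM and 7.74 ± 0.31 with the authors' posterior mean TPM. Rbp4 exceeded Rbp2 by 6.44 ± 0.17 on the log2 scale of TPM and Stra6l, a membrane receptor for Rbp4 in mouse, by 8.77 ± 0.18.

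Thyroxine carriers and deiodinases were ordered in a like way in both livers. Ttr exceeded Serpina7, thyroxine-binding globulin (103 TPM in both), by 4.73 ± 0.17 on the log2 scale and lay below albumin by -2.37 ± 0.097. Dio1 exceeded Dio2, the deiodinase that activates thyroxine in tissues such as brown fat, in both livers. By deposited TPM the excess was 523-fold in pup 2 (counting interval 177 to 2551) and 227-fold in pup 1 (114 to 529). Dio2 TPM is deposited in rounded form, at 0.01 in pup 2 and 0.04 in pup 1. The folds and intervals carry that rounding, so they are rough and their gap between the pups cannot be read. Dio2 itself had 3 counts in pup 2 and 8 in pup 1. Dio3, which inactivates thyroid hormone, had 3 counts in pup 2 and 4 in pup 1, or 0.06 TPM in pup 2 and 0.08 in pup 1.

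Among genes of the Aldh1a family, Aldh1a2 lay below Aldh1a3 (1.19 TPM in pup 2, 1.2 in pup 1) by -1.27 ± 0.24 on the log2 scale. Aldh1a1 did not exceed its close relative Aldh1a7 (1.12 TPM in pup 2, 1.4 in pup 1) beyond the spread, with a log2 ratio of 1.09 in pup 2 and 0.44 in pup 1. It was the higher in each liver, and the counting intervals of the fold, 1.62 to 2.83 in pup 2 and 1.04 to 1.78 in pup 1, left out 1. Dhrs3 exceeded Rdh10, which oxidises retinol and with which Dhrs3 forms a complex, by 4.13 ± 0.12. Rdh10 stood at 2.76 TPM in pup 2 and 2.33 in pup 1. Aldh1a1 exceeded Cyp26a1, which breaks retinoic acid down (0.22 TPM in pup 2, 0.18 in pup 1), by 3.42 ± 0.029. Cyp26a1 rested on 13 counts in pup 2 and 11 in pup 1, so that small SD does not cover its counting error. The counting intervals of the fold were 6.18 to 20.8 in pup 2 and 5.71 to 21.7 in pup 1. Cyp26a1 exceeded Cyp26b1 by 0.99 ± 0.20, but the counting intervals of that ratio included 1 in each liver (0.974 to 4.88 in pup 2 and 0.762 to 4.07 in pup 1), and per read, without correction for length, the order was reversed.

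**Figure D2:**
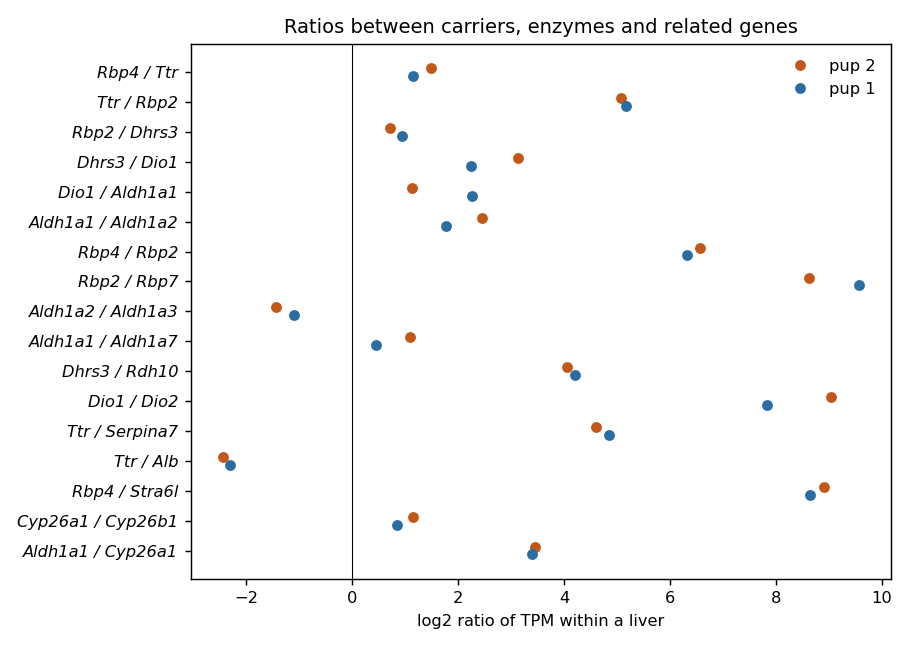
Log2 ratio of TPM between the first and the second gene of each row within the liver of pup 2 (orange) and of pup 1 (blue), for 6 steps in the order of the 7 genes and 11 further ratios. All points lie to the right of 0 except those of Aldh1a2 over Aldh1a3 and Ttr over Alb.

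The genes lie on 4 chromosomes, given here from GENCODE M21 on GRCm38. Rbp4 (ENSMUSG00000024990.8, chromosome 19, 38116629 to 38125281, minus strand) and Aldh1a1 (ENSMUSG00000053279.6, 20492715 to 20643465) share chromosome 19. Rbp2 (ENSMUSG00000032454.5, 98486115 to 98509781) and Aldh1a2 (ENSMUSG00000013584.5, 71215789 to 71296243) share chromosome 9. Dio1 (ENSMUSG00000034785.10, 107291465 to 107307169, minus strand) and Dhrs3 (ENSMUSG00000066026.10, 144892827 to 144928209) share chromosome 4. Ttr (ENSMUSG00000061808.3) is on chromosome 18, from 20665280 to 20674321. Aldh1a7 lies 49.5 kb from Aldh1a1 on the opposite strand. Cyp26a1 lies 415 kb from Rbp4 with 3 protein-coding genes between them.

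Each of the 7 genes had whole expected counts in both livers, within 0.005. The overlapping gene Gm37113, on the strand of Rbp2, had 0 counts in pup 2 and 1 in pup 1. The pseudogene Gm6684, opposite Aldh1a1, had 0 in both.

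The transcript tables showed 1 dominant transcript for Rbp4, Rbp2 and Dio1 and several for Dhrs3. Rbp4-202 held 99.57% of Rbp4 TPM in pup 2 and 99.62% in pup 1. Its 6 exons start at 38124828, downstream of the start of Rbp4-201 at 38125248, and Rbp4-201 held 0.43% in pup 2 and 0.38% in pup 1. This minor transcript stood at 30.0 TPM in pup 2 and 25.4 in pup 1, above Dio1. GENCODE M21 lists 4 Rbp4 transcripts, and only 2 of them were counted here, so the Rbp4 shares are shares among those 2. Rbp2-201, which starts at 98490537, held 99.78% of Rbp2 TPM in pup 2 and 100% in pup 1. Rbp2-202 and Rbp2-204, whose starts lie further upstream at 98486166 and 98486115, had 0 counts in both livers. The bases printed above lie before the RefSeq starts matched to Rbp4-202, Rbp4-201 and Rbp2-201, and those of Rbp4 differ from the GENCODE starts.

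Dio1-201, with 4 exons, held 97.44% of Dio1 TPM in pup 2 and 97.98% in pup 1, and 6 of the 8 annotated Dio1 transcripts had 0 counts in both livers. By the authors' posterior mean estimate the share of Dio1-201 was 81.3% in pup 2 and 86.8% in pup 1. Dhrs3 was divided between 3 main transcripts. Dhrs3-207 held 41.65% in pup 2 and 37.9% in pup 1, Dhrs3-206 27.91% in pup 2 and 28.5% in pup 1, and Dhrs3-201 21.64% in pup 2 and 25.53% in pup 1. Dhrs3-201 is annotated as a target of nonsense-mediated decay, and the 4 protein-coding transcripts together held 74.0% ± 1.74 of Dhrs3 TPM. The credible intervals of TPM of each of these 3 transcripts overlapped between the livers. Ttr, Aldh1a1 and Aldh1a2 have 1 transcript each in the tables. The Aldh1a1 transcript starts at 20601961, and later annotation adds transcripts from 20492715 that were not counted here.

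**Figure D3:**
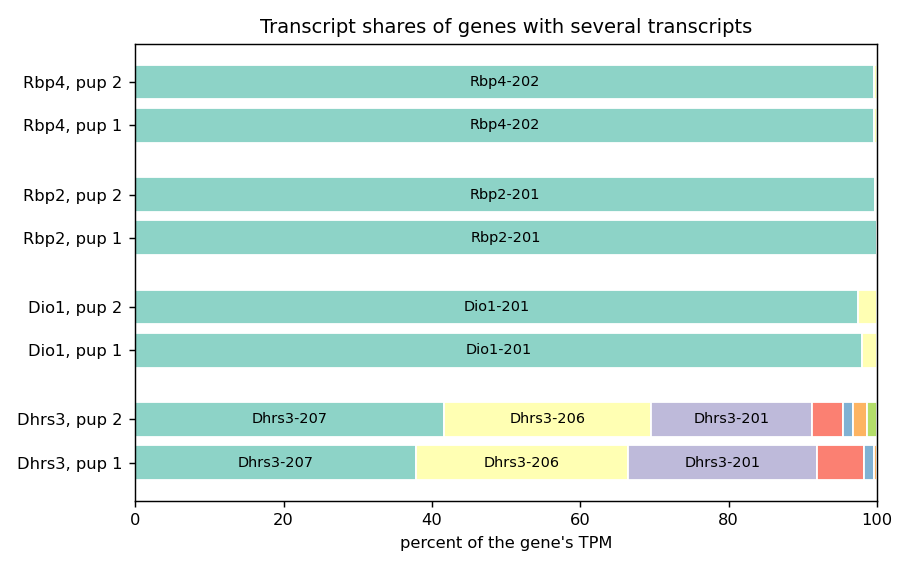
Percent of each gene's TPM given to each annotated transcript, as stacked bars for the liver of pup 2 and of pup 1, for the 4 genes with several transcripts. One transcript fills nearly the whole bar for Rbp4, Rbp2 and Dio1, whereas Dhrs3-207, Dhrs3-206 and Dhrs3-201 divide the bar of Dhrs3.

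Between the littermates, 0 of the 7 genes were at least 2-fold apart. This count asked for a log2 ratio of pup 2 over pup 1, on TPM + 1, of 1 or more in size, a mean TPM of 1 or more and credible intervals that did not overlap. It is a rule of size on 1 library a pup, with no replicate check, and it called 80 of 12711 genes (0.629%), 72 higher in pup 2 (0.566%) and 8 lower (0.0629%). Aldh1a2, with a mean of 0.5 TPM, could not be called by this rule. Without the filter on mean TPM the count over the 7 genes was also 0. Scaled to the spike-ins, 65 genes were called higher in pup 2 and 19 lower. The median log2 ratio was -0.12 over the 7 genes and -0.051 over the 12711.

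Dio1 was the furthest apart, with a log2 ratio of -0.69 on TPM + 1. Without the pseudocount its TPM in pup 2 was 0.576 times that in pup 1, and its counts per library total had a ratio of 0.587 (exact 95% counting interval 0.507 to 0.68). The credible intervals, 5.16 to 6.87 TPM in pup 2 and 8.78 to 11.0 TPM in pup 1, did not overlap. The middle 95% of the 4485 genes within 2-fold of its level ran from -0.47 to 0.39, so Dio1 lay outside that range. Dio1 was past 1.5-fold, as were 1.47% of the 12711 genes, and 0.472% in its direction.

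Ttr was lower in pup 2 with a log2 ratio of -0.24, just outside the range of -0.23 to 0.31 of the 62 genes near its level. Rbp2 had a ratio of -0.15 and Rbp4 one of 0.081, both inside the ranges of genes near their levels. Dhrs3 was at 0.074, Aldh1a1 at 0.23 and Aldh1a2 at -0.12, with overlapping credible intervals. The intervals of Rbp4, Ttr, Rbp2 and Dio1 did not overlap between the livers, nor did those of 20.1% of the 12711 genes. Such intervals are narrow for genes with many counts and do not cover the spread between animals. Spike-in reads were few, 190 in pup 2 and 163 in pup 1. Their ratio per library total was 1.18, and its exact 95% counting interval, 0.956 to 1.47, included 1. Scaling by that ratio moved the median of all genes to -0.27 and Rbp4 and Dhrs3 below 0, to -0.16 and -0.17, both still above that median, and Ttr to -0.49 and Dio1 to -0.92, both still below it.

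RNA of striated muscle and pancreas was higher in pup 2, with all 8 markers of each list at least 2-fold apart. In both livers 1 TPM was reached by 7 muscle markers but only 1 pancreas marker, so most pancreas markers passed the level filter through pup 2. Both lists were chosen with earlier results of these data known, so these counts are a description only. The summed level of the 2 lists was 950 TPM in pup 2 and 58.9 in pup 1, or 0.095% of all TPM in pup 2 and 0.00589% in pup 1. The part of such RNA in the differences of Dio1 and Ttr was not tested. The 7 hepatocyte markers, all detected, summed to 65787 TPM in pup 2 and 67857 in pup 1, a log2 ratio of -0.045. That sum is set mostly by Apoa1, Ahsg and Alb. Singly, 5 of the 7 were lower in pup 2 and 2 higher, beside 63.0% lower over the 12711 genes. Their log2 ratios on TPM + 1 ran from -0.73 for Tat to 0.22 for Fgb.

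**Figure D4:**
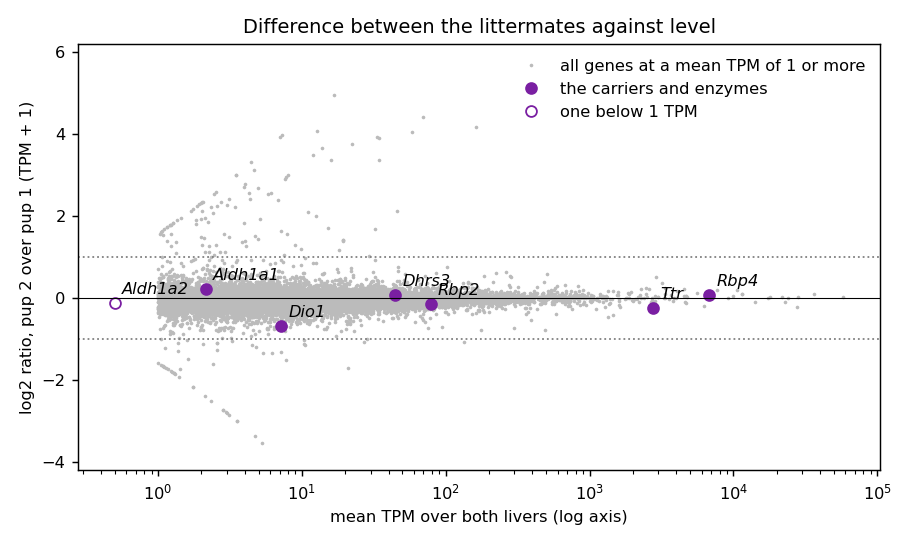
Log2 ratio of pup 2 over pup 1 on TPM + 1 against mean TPM on a log axis, for genes with a symbol averaging at least 1 TPM (grey) and the 7 carriers and enzymes (purple, open for Aldh1a2), with dotted lines at 2-fold. All 7 lie between the dotted lines, and Dio1 is the lowest of them at -0.69.

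Markers of other cell types stood beside these levels as follows. Of 10 intestine markers, 3 reached 1 TPM in both livers: Fabp2 at 42.1 TPM in pup 2 and 37.1 in pup 1, Lgals4 at 17.0 in pup 2 and 18.8 in pup 1, and Anpep at 11.3 in pup 2 and 13.4 in pup 1. The defining intestinal transcription factors Cdx1 and Cdx2 and the enzyme Alpi had 0 counts in both livers, which allows up to 0.0724 CPM in pup 2 and 0.0712 in pup 1 at 3 counts. Sis and Lct had at most 8 counts. Vil1 had 12 counts in pup 2 and 18 in pup 1, and Cdh17 had 6 in pup 2 and 17 in pup 1. The part of intestinal RNA in the level of Rbp2 was not tested. Intervals and limits of this kind cover counting error only.

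Of 12 stellate cell markers, 10 reached 1 TPM in both livers, and all 12 summed to 270 TPM in pup 2 and 264 in pup 1. Without Des, also a muscle gene, the sum was 257 TPM in pup 2 and 260.3 in pup 1. Both sums are set mostly by Dcn (125 TPM in pup 2, 128 in pup 1) and Ecm1 (77.9 TPM in pup 2, 71.0 in pup 1). Of the 10 markers averaging at least 1 TPM, Des included, 8 were lower in pup 2, as were 63.0% of the 12711 genes at that level. Lrat, which forms the retinyl esters stored in stellate cells, stood at 2.83 TPM in pup 2 and 3.19 in pup 1. Des was the only one of the 12 at least 2-fold apart, at 12.3 TPM in pup 2 and 3.51 in pup 1. Of 7 mesothelial markers 5 reached 1 TPM in both, and all 7 summed to 26.8 TPM in pup 2 and 31.8 in pup 1, beside which Aldh1a2, known from mesothelium, was at 0.44 TPM in pup 2 and 0.56 in pup 1. All 6 erythroid markers were detected. None of the 6 kidney and choroid plexus markers reached 1 TPM in both, and Umod, Slc34a1, Slc12a1 and Otx2 had 0 counts.

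The rest of the retinoid and thyroid hormone pathways was read from 10 lists of 88 genes, of which 65 reached 1 TPM in both livers, as did 28.5% of all Ensembl genes. Of these 88, 66 averaged at least 1 TPM, 31 of them higher and 35 lower in pup 2, with a median log2 ratio of -0.0054. Over the 12711 genes at that level 63.0% were lower in pup 2, and the median was -0.051. Of the 66 genes 0 were at least 2-fold apart, beside 0.629% of the 12711. The rest of the 88 were below the level that the rule asks for. Without that level filter the count over the 88 was also 0. Of 20 genes that interconvert retinol and retinaldehyde, 15 were detected. The alcohol dehydrogenase Adh1 led at 435 TPM in pup 2 and 383 in pup 1, followed by Rdh7 at 300.2 in pup 2 and 313 in pup 1 and Adh5 at 232 in pup 2 and 214 in pup 1. Of these redox genes, Rdh1, Rdh16, Dhrs9 and Sdr16c5 were below 1 TPM in both livers, and Adh4 stood at 1.4 TPM in pup 2 and 0.71 in pup 1. The Rdh genes include similar copies, and Rdh1, Rdh5, Rdh7, Rdh9 and Rdh16 had expected counts that were not whole.

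All 5 other genes listed under retinoic acid synthesis were detected, led by the dehydrogenase Aldh8a1 at 102 TPM in pup 2 and 97.2 in pup 1, far above Aldh1a1. The list holds relatives of Aldh1a1 and carotenoid-cleaving enzymes, and whether each of them makes retinoic acid in liver was not tested. The carotene-cleaving Bco1 was at 5.72 TPM in pup 2 and 7.13 in pup 1. Of 3 Cyp26 genes of retinoic acid breakdown, 0 reached 1 TPM, and their sum was 0.32 TPM in pup 2 and 0.3 in pup 1. Of 6 receptors 5 were detected, with the retinoid X receptors Rxrb at 13.5 TPM in pup 2 and 13.04 in pup 1 and Rxra at 12.1 TPM in pup 2 and 11.7 in pup 1 above the retinoic acid receptor Rara at 4.9 TPM in pup 2 and 4.7 in pup 1. Rxrg was at 0.42 TPM in pup 2 and 0.17 in pup 1.

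Of 11 genes of retinoid binding and uptake, 5 were detected. Lipoprotein lipase, Lpl, led at 163 TPM in pup 2 and 160 in pup 1, and Stra6l stood at 14.7 TPM in pup 2 and 16.5 in pup 1. Stra6, the Rbp4 receptor of other tissues, had 0 counts in pup 2 and 1 in pup 1, and Crabp2 had 0 in both. Of 11 genes that make or split retinyl esters, 10 were detected, led by the carboxylesterases Ces1d at 189.5 TPM in pup 2 and 190.5 in pup 1 and Ces2a at 138 TPM in pup 2 and 132 in pup 1, whose families hold similar copies.

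**Figure D5:**
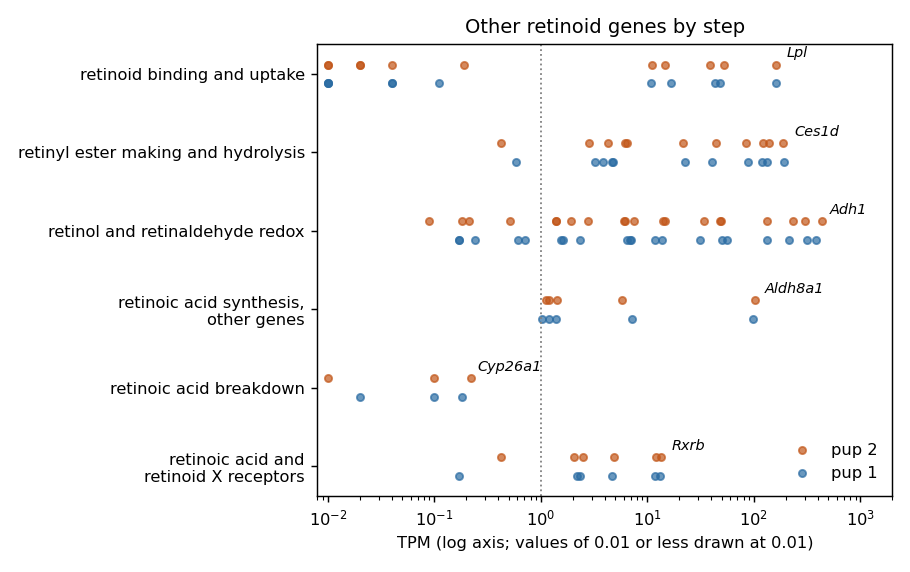
TPM on a log axis of the other listed retinoid genes in the liver of pup 2 (orange) and of pup 1 (blue), a row for each step, with the most abundant gene of each row named and a dotted line at 1 TPM. All 3 genes of retinoic acid breakdown lie left of the line and all 5 other genes listed under synthesis lie right of it.

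On the thyroid side, 8 of 12 carriers and transporters were detected. Apart from albumin they were led by Slc10a1 at 435 TPM in pup 2 and 439 in pup 1 and Slco1b2 at 197 TPM in pup 2 and 215 in pup 1. The receptors Thra (4.42 TPM in pup 2, 5.31 in pup 1) and Thrb (2.55 TPM in pup 2, 3.0 in pup 1) were both detected. Of the 7 receptors and response genes that averaged at least 1 TPM, 6 were lower in pup 2, with a median log2 ratio of -0.17, and 63.0% of the 12711 genes were also lower in pup 2. Whether the list differs from that share was not tested. Klf9 was at 11.99 TPM in pup 2 and 16.2 in pup 1 and Me1 at 6.7 TPM in pup 2 and 8.88 in pup 1, whereas Bcl3 was at 9.79 TPM in pup 2 and 4.89 in pup 1. All 10 genes of the selenoprotein list were detected. Only some of them are machinery for making selenoproteins such as Dio1, and others are selenoproteins themselves or selenium-binding proteins. Selenop, the plasma selenium carrier, stood at 3981 TPM in pup 2 and 3993 in pup 1, and Secisbp2, which reads the selenocysteine signal, at 9.28 TPM in pup 2 and 10.3 in pup 1.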

How the data were processed

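RNA-seq of 2 newborn livers was analysed from the gene and transcript tables deposited for each library, laid out as RSEM writes them. Notes that came with the tables name the assembly mm10 and annotation M4 (GENCODE). For the aligner, counter and use of strand: not given in the sources used here. The labels link the manual of a SMARTer Ultra Low RNA kit. The authors deposited an expected count per gene and per transcript. TPM and FPKM were deposited by the authors per effective length. Percent of a gene's TPM per transcript was deposited by the authors. The level of their credible intervals is not given, and for abundant genes TPM can lie outside them because they belong to a posterior mean.

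Symbols, biotypes and coordinates came from GENCODE M21, matched by Ensembl identifier (42462 of 43346 genes). Means, SDs and log2 ratios were computed with Python 3.11.15 (scipy 1.17.1, numpy 2.4.6, pandas 2.3.3), figures with matplotlib 3.10.9. TMM factors, one alternative, came from edgeR 4.0.16 in R 4.3.3 on expected counts rounded to whole numbers. Counting intervals are exact binomial. The named genes were the 7 members, listed pathway and marker genes, and the protein-coding genes next to each member in mean TPM. Members, lists and pairs were chosen with earlier results of these data known. All 150 distinct listed symbols matched. The sequences are from the RefSeq promoter table. Some listed genes were counted in their lists and are not reported here by name.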

Additional observations from a re-analysis of the deposited data

How the results depend on the processing

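The number of the 7 genes at 1 TPM in both livers was 6, and it was 6 at 0.5 TPM, with FPKM and in each liver alone, and 5 at 5 TPM. The count of neighbouring levels apart beyond the spread was 5 with posterior mean TPM and with counts per library total, and FPKM cannot change it, since it scales all genes of a library alike. The count of 10 among 11 further ratios became 9 with counts per library total. With those counts, which do not correct for length, the log2 ratios of Cyp26a1 to Cyp26b1 (-0.46) and of Rbp2 to Dhrs3 (-0.64, added after the data were seen) were reversed. At 1.5-fold, 1 of the 7 genes (Dio1) and 1 of the 88 pathway genes were called, in place of 0, and the counts over all genes were 127 higher and 60 lower in pup 2. Genes called higher numbered 18 at a mean TPM of 10. Genes called lower numbered 19 with a pseudocount of 0.1, 4 with TMM factors, 19 with spike-in scaling, 4 at a mean TPM of 10 and 55 without the condition on credible intervals, in place of 8. The cause was not tested, except that a stricter level leaves fewer genes and a smaller fold admits more. Counts of ratios could not be made without a replicate, since 1 liver has no SD. No paired analysis was possible because there is only 1 group. Depth limits Aldh1a2, Dio2, Dio3, Rbp7 and the Cyp26 genes, whose levels rest on at most 43 counts.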

Other observations

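Among the listed genes that are not carriers or enzymes of the main set, Bcl3 alone of the 88 pathway genes was past 1.5-fold on TPM + 1 with credible intervals that did not overlap (9.79 TPM in pup 2, 4.89 TPM in pup 1). Ces1g, at 6.15 TPM in pup 2 and 3.84 in pup 1, fell short of it on that scale, with a log2 ratio of 0.56, and was past it on plain TPM. Tat, a tyrosine aminotransferase used here as a hepatocyte marker, was at 56.4 TPM in pup 2 and 94.4 in pup 1. Hgf was at 1.76 TPM in pup 2 and 2.76 in pup 1. Rxrg rested on 24 counts in pup 2 and 9 in pup 1.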
